A study of Mus musculus with 5 samples.

Results

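The genes described here are 9 that carry the signals keeping microglia, the resident macrophages of the brain, alive and in their resting identity. They are the ligands Csf1, Il34, Tgfb1 and Tgfb2, the receptors Csf1r, Tgfbr1 and Tgfbr2, the signal transducer Smad3 and the transcription factor Sall1. They were chosen by name, and all 9 of the 78334 genes listed in the count matrices were found, each under 1 identifier. The study compared the dentate gyrus, the input region of the hippocampus, of mice that had been through CFC (contextual fear conditioning) with that of control mice, under a title on IL-3 and its receptor subunit CSF2RB2. Dissociated cells were profiled from wild-type mice 14 days after CFC training (CFC-14d) and from wild-type mice 14 days after random foot shocks (Random-14d). Nuclei from frozen tissue were profiled from untrained wild-type mice (WT-naive) and wild-type mice 14 days after CFC training (WT-CFC). A further group, titled Csf2rb2-knockout, was profiled as nuclei 14 days after the same training (KO-CFC). Each group was 10 mice in 1 library, so the difference between any pair of groups is a difference between 2 libraries, with no replicate check and no test. Strain, sex and age are not given in the sources used here.

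CSF1 and IL-34 are both ligands of CSF1R, a receptor tyrosine kinase on which the survival of microglia depends. IL-34 is known as the form made mainly by neurons, and CSF1 as the form made by glia. TGF-beta1 is held in a latent form and, once released, binds TGFBR2, which recruits TGFBR1 to phosphorylate SMAD2 and SMAD3. TGF-beta signalling and SALL1, a zinc finger factor found among brain macrophages mainly in microglia, are known to keep the genes of resting microglia on.

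The promoters of 3 members are shown because these genes stood furthest apart between libraries in microglia or between cell types. Csf1 had the largest ratio between libraries in microglia, and Tgfbr1 and Sall1 were the members with the clearest excess in microglia over the next cell type in dissociated cells. RefSeq's table matched 7 of the 9 members, with 10 windows in all, and Csf1r and Il34 were not matched. Each run below is the 250 bases before a transcript start in GRCm38.p6, written 5′ to 3′ on the gene's strand, with a motif match in capitals. In Csf1, at chr3:107760470-107760719 on the minus strand, the capitals mark the reverse complement of the kappaB motif GGANTTTCC, 154 bases before the start. In Tgfbr1, at chr4:47352972-47353221 on the plus strand, they mark GGCGCC, a GC-rich sequence bound by SMAD proteins, 233 bases before the start. In Sall1, at chr8:89044163-89044412 on the minus strand, they mark CAGAC, the SMAD box, 158 bases before the start.
Csf1: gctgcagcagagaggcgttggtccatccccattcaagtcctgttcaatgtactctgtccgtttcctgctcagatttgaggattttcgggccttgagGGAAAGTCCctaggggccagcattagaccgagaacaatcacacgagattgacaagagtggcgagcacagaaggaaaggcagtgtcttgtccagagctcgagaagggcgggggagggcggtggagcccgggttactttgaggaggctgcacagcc
Tgfbr1: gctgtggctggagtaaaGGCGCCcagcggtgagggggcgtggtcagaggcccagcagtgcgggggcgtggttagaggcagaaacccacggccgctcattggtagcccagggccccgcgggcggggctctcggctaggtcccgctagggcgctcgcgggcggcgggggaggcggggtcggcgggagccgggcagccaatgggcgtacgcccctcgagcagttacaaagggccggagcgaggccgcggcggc
Sall1: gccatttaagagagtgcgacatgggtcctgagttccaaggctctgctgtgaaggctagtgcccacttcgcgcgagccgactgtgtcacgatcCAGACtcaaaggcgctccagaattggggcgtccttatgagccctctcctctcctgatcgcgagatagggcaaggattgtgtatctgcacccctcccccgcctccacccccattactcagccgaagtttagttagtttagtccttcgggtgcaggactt
Both strands of every window were searched. The kappaB motif was found in 2 of the 10 windows of members, those of Csf1 and Smad3, and in 1.07% of all 32851 windows. CAGAC was found in 4 of 10 and in 42.2% of all windows, and GGCGCC in 3 of 10 and in 9.59%. The PU.1 motif GAGGAAGT was in none of the 10 and in 2.44% of all windows, and the SMAD palindrome GTCTAGAC was in none of the 10 and in 0.167%. A match describes the letters of the window and is not evidence of binding.

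The 5 libraries held 126937815 UMIs (unique molecular identifiers, counted molecules) in 32827 barcodes of CFC-14d and 122920565 in 30515 of Random-14d, and between 38045642 and 68519389 UMIs in 8395 to 13213 barcodes of the libraries of nuclei. Csf2rb2, the gene that the title of the knockout group names as deleted, was present in every library. It stood at 3.53 CPM (counts per 1000000 counts) in CFC-14d, at 3.83 after random shocks, at 14.4 in the naive and 17.6 in the trained wild-type nuclei, and at 9.67, or 368 counts, in KO-CFC. A deletion can leave part of a transcript to be counted, and the genotype tag of that group reads Csf2rb3-KO, so its mice are called below the library labelled KO-CFC. That library also stood apart in other genes. Xist, transcribed from the inactive X chromosome, was at 641 CPM there and at 0.122 to 2.94 in the other libraries, and the Y-linked Ddx3y was at 6.39 against 28.3 to 67.7. Igkc, an immunoglobulin light chain, was at 460 CPM against 0 in WT-naive and 0.0146 in WT-CFC, and the neutrophil gene S100a9 at 15.6 against 0 and 0.0876. CFC-14d and Random-14d shared 282 barcodes, 0.924% of the smaller library, and pairs of libraries of nuclei shared 25 to 32.

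Cell classes were rebuilt by clustering, without the members, and named after marker genes, so each name below means cells like that type. Microglia-like barcodes were 9130 of 28532 kept in CFC-14d (32.0%) and 10324 of 26462 in Random-14d (39.0%), with median depths of 2147.5 and 1955 UMIs. In nuclei they were 324 in the naive (3.34%), 345 in the trained wild-type (2.87%) and 709 in the KO-CFC library (9.81%), with median depths of 1195.5, 1352 and 1105 UMIs. All 10 microglia markers were at 2-fold or more in both microglia-like clusters of nuclei. Unnamed clusters held 32.0% and 19.1% of the cells of CFC-14d and Random-14d, and 20.9%, 40.5% and 33.4% of the nuclei in the same order, and are left out of the classes. Levels below are counts of a gene per 1000000 counts of its class in 1 library, with exact Poisson 95% intervals where given. These intervals, and the exact Clopper-Pearson intervals and the intervals of ratios, cover counting error only.

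In dissociated cells the ligands came from different classes. Csf1 was highest in oligodendrocyte-like cells, at 84.1 CPM in CFC-14d (71.1 to 98.9, 148 counts) and 78.6 in Random-14d (66.9 to 91.7, 161 counts). Fibroblast-like cells followed at 45.3 and 54.7 CPM, microglia-like cells at 35.2 and 35.8, and endothelial-like and astrocyte-like cells at 26.1 and 26.3 and at 24.8 and 27.5. Each of the first 3 steps was wider than the spread between the libraries, while the endothelial-like and astrocyte-like values overlapped. That spread leaves out counting error, and the fibroblast-like class had only 250 and 268 cells. By number of molecules, microglia-like cells, the most numerous class, held 49.3% and 50.7% of all Csf1 counts. So the genes for this ligand and its receptor were read from the same class. The share of microglia-like cells with a Csf1 UMI was only 2.76% and 2.78% after thinning to 1000 UMIs (4.62% and 4.66% unthinned). In oligodendrocyte-like cells that thinned share was 6.0% and 8.70%, and in choroid plexus epithelial-like cells, with the lowest share of these classes, 0.42% and 0.47%. Here and below, thinned shares leave out barcodes with fewer than 1000 UMIs, and unthinned shares cover all barcodes of the class. A microglia-like cluster described below, with a median of 814 UMIs, is thus under-represented in the thinned shares.

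Il34 had the narrowest distribution of the ligands. It stood at 304 CPM in CFC-14d and 335 in Random-14d in pericyte-like cells, the mural cells of capillaries, and at 157 and 225 in fibroblast-like cells. The next class with at least 100 cells in each library, monocyte-like cells with 3 and 7 counts, was on average 21.2-fold lower than the fibroblast-like cells. Smooth muscle-like cells, the other mural class, had 56.6 and 78.3 CPM but only 159 and 84 cells. Pericyte-like cells held 61.1% and 67.1% of all Il34 counts, and microglia-like cells had 1.08 and 1.43 CPM. Neurons other than neuroblast-like cells were too few among the dissociated cells to be named, so a neuronal source of Il34 is described from the nuclei. Among pericyte-like clusters, Il34 was 285 and 317 CPM in the largest (led by Vtn and Atp13a5), 745 and 697 in a smaller one led by Ifitm1 and Rasl11a, and 57.1 and 28.2 in one led by Rgs5.

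Tgfb1, the ligand on which microglia depend, was highest in monocyte-like cells, at 179 and 114 CPM, and in microglia-like cells, at 139 (134 to 145) and 125 (119.9 to 129.5), and these classes overlapped. B cell-like cells had 101 and 76.1 CPM, border-associated macrophage-like cells 72.5 and 57.8, and oligodendrocyte-like cells 6.3 in both libraries. Microglia-like cells held 61.8% and 67.1% of all Tgfb1 counts. Tgfb2 was highest in choroid plexus epithelial-like cells, which had 152 and 135 CPM and held 59.5% and 62.0% of its counts, and endothelial-like cells followed at 125 and 97.3. Neutrophil-like cells had 80.1 and 78.3 CPM of it, platelet-like cells had 63.4 and 58.3, astrocyte-like cells 67.9 and 69.2 CPM, and microglia-like cells 9.36 and 6.33. Choroid plexus epithelial markers also stood high in some of these cells. Their mean log2 excess was 1.02 times that of platelet markers in the platelet-like cluster. It was 0.83 times that of neutrophil markers in the larger neutrophil-like cluster, and 0.58 times that of astrocyte markers in the larger astrocyte-like cluster. The part of choroid plexus RNA in the Tgfb2 of these classes was not tested. Endothelial-like cells had 51.1 and 50.0 CPM of Tgfb1.

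The receptors were highest in microglia-like cells. Csf1r was at 1502 CPM (1485 to 1520) in CFC-14d and 1468 (1452 to 1485) in Random-14d, ahead of border-associated macrophage-like cells at 901 and 935 and monocyte-like cells at 484 and 594. A Csf1r UMI was found in 77.1% and 76.5% of microglia-like cells thinned to 1000 UMIs (82.5% and 88.1% unthinned). Tgfbr1 stood at 866 and 846 CPM, on average 3.45-fold above border-associated macrophage-like cells, the next class, at 233 and 264. Tgfbr2 was spread over more classes: 257 and 262 CPM in microglia-like cells, 218 and 247 in border-associated macrophage-like cells and 219 and 213 in endothelial-like cells, the last pair overlapping each other.

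Downstream of the receptors, Sall1 followed the pattern of Tgfbr1 and Smad3 did not. Sall1 was at 176 CPM (169.9 to 181.7) in CFC-14d and 179 (173 to 184.5) in Random-14d in microglia-like cells, on average 3.33-fold above astrocyte-like cells at 44.7 and 61.8, the next class. Border-associated macrophage-like cells, also long-lived macrophages of the brain, had 45.9 and 44.2 CPM. Smad3 was at 49.9 and 49.0 CPM in microglia-like cells and at 50.1 and 36.5 in fibroblast-like cells, which overlapped. Thinned to 1000 UMIs, 17.0% of microglia-like cells of each library had a Sall1 UMI (28.8% and 28.6% unthinned), against 0.58% and 0.40% of choroid plexus epithelial-like cells.

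Levels of these genes outside the myeloid classes need a background beside them. Csf1r, a myeloid gene, was still at 28.8 and 34.9 CPM in choroid plexus epithelial-like cells and at 390 and 471 in astrocyte-like cells, and the non-myeloid classes stood at 1.9% to 32% of the microglia-like level. Choroid plexus epithelial-like cells, thinned, had a Csf1r UMI in 5.07% and 3.8% of cells, and oligodendrocyte-like cells in 5.11% and 6.39%. In microglia-like cells there were 57.7 and 57.6 Tgfbr1 counts and 11.7 and 12.2 Sall1 counts per 100 Csf1r counts. Pericyte-like cells had nearly the same proportions, 56.5 and 58.9 Tgfbr1 and 12.7 and 15.7 Sall1 counts per 100. Oligodendrocyte-like cells differed, with 39.0 and 35.5 Sall1 counts per 100 Csf1r counts, and endothelial-like cells had 128 and 116 Tgfbr2 counts per 100 against 17.1 and 17.9 in microglia-like cells. Border-associated macrophage-like cells had only 5.1 and 4.7 Sall1 and 25.8 and 28.2 Tgfbr1 counts per 100. Astrocyte-like cells had 50.1 and 47.1 Tgfbr1 and 11.5 and 13.1 Sall1 counts per 100. How much of the Csf1r, Tgfbr1 and Sall1 outside microglia-like cells was free RNA was not tested.

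**Figure D1:**
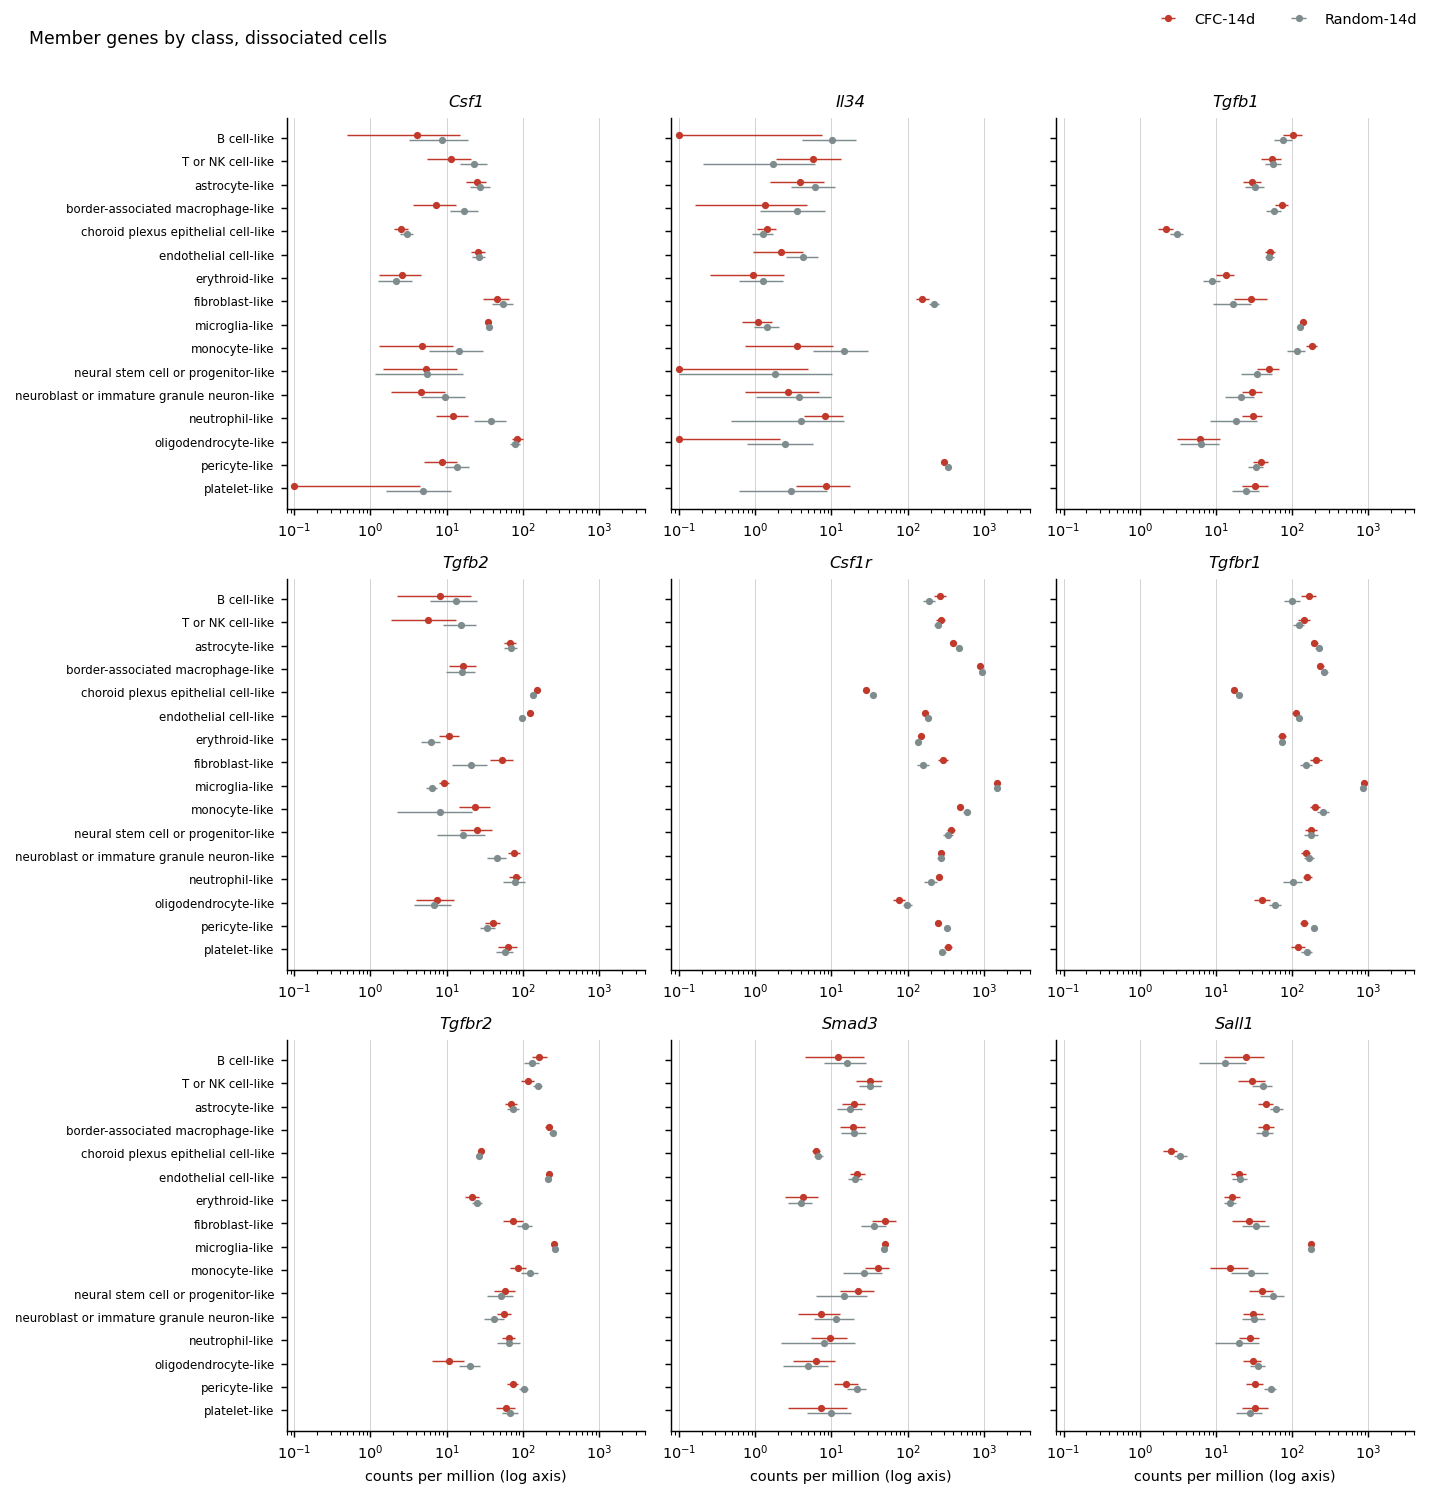
Level of each of the 9 genes in the 16 classes of dissociated cells with at least 100 cells in each library, in CPM on a log axis. Points are CFC-14d and Random-14d, bars are exact Poisson 95% intervals, and a level of 0 is drawn at 0.1. Csf1r, Tgfbr1 and Sall1 are highest in microglia-like cells, Il34 in pericyte-like and fibroblast-like cells and Tgfb2 in choroid plexus epithelial-like cells.

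Microglia-like cells were not uniform in these genes. The largest cluster, with 3845 and 5174 cells and led by the resting-state genes P2ry12, Cx3cr1 and Tmem119, had 24.7 and 21.7 CPM of Csf1. A cluster of 2618 and 3246 cells led by the chemokine genes Ccl4 and Ccl3 and the stress-response genes Gem and Atf3 had 53.6 and 60.4 CPM, 2.17-fold and 2.78-fold higher. A cluster of 2409 and 1749 cells led by Tyrobp, Cst3 and Ctss had 8.91 and 12.3 CPM. The smallest, 258 and 155 cells led by the interferon-response genes Ifit3 and Cxcl10, had 74.8 and 45.0 CPM from 38 and 13 counts. Csf1 thus ranged from 8.91 to 74.8 CPM between clusters of 1 class in CFC-14d, while the receptors and Sall1 ranged less widely. Csf1r was at 1597 and 1524 CPM in the P2ry12-led cluster, 1499 and 1419 in the Ccl4-led cluster and 1196 and 1398 in the Tyrobp-led cluster. Sall1 was at 192 and 186 CPM, 175 and 179.5, and 123 and 144 in the same 3 clusters, and Tgfbr1 at 939 and 879, 881 and 828, and 604 and 762. The Tyrobp-led cluster had the lowest Csf1, Csf1r, Tgfbr1, Tgfbr2, Smad3 and Sall1 of these 3 clusters in both libraries. It was also the shallowest of the 3, with a median of 814 UMIs over the libraries. The P2ry12-led cluster had 2116 and the Ccl4-led cluster 2406. The part of depth and of free RNA in its lower levels was not tested. The clusters were made from all other genes of the same cells, so these values are a description, and whether dissociation at 37 °C moved cells between them was not tested.

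**Figure D2:**
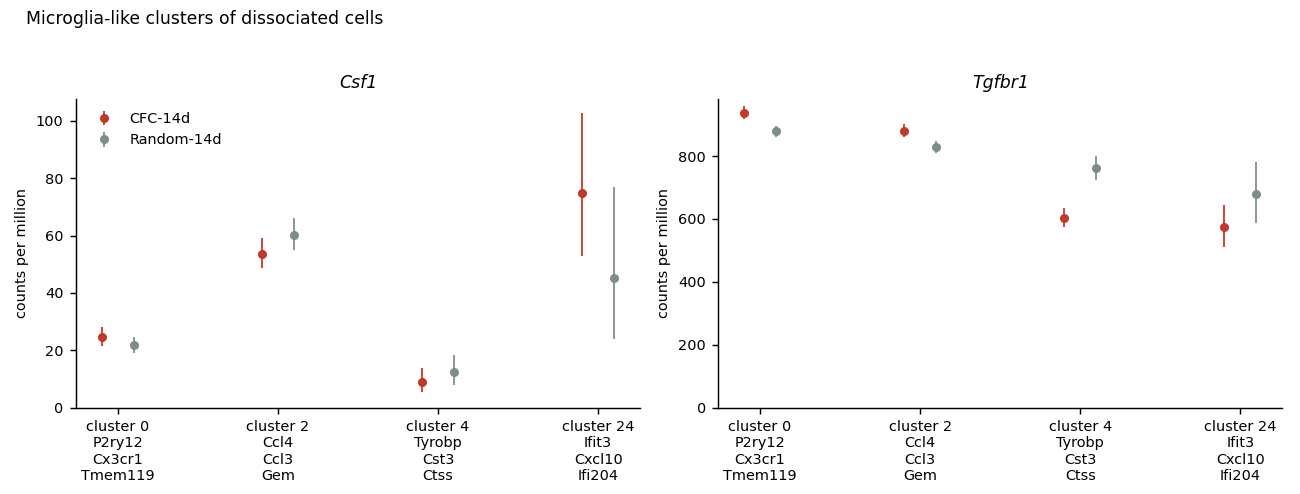
Levels of Csf1 (left) and Tgfbr1 (right) in the 4 clusters of microglia-like dissociated cells, each labelled with its 3 leading genes, in CPM from 0. Points are the 2 libraries and bars exact Poisson 95% intervals. Csf1 is 2.17-fold and 2.78-fold higher in the Ccl4-led cluster than in the P2ry12-led cluster. The Tyrobp-led cluster is the lowest of the 3 large clusters in Csf1 and Tgfbr1, and also has the lowest median depth of them.

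CFC-14d was then set against Random-14d, the control with random foot shocks. In microglia-like cells none of the members differed by as much as 1.5-fold. A gene counted as measured in a class when the class had at least 100 barcodes in each library and the gene at least 100 counts over both, and as past the threshold at 1.5-fold or more. Of 8 members measured in microglia-like cells 0 were past it, where 1.71% of all 12453 measured genes were. The log2 ratios, CFC-14d over Random-14d, were 0.03 for Csf1r, 0.03 for Tgfbr1, -0.03 for Tgfbr2, 0.03 for Smad3, -0.02 for Sall1 and -0.02 for Csf1. Tgfb1 was at 0.16, and the widest was Tgfb2 at 0.56, from 182 and 133 counts. Il34, with 21 and 30 counts, was not measured.

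Over all named classes 7 of the 81 measured pairs of member and class were past the threshold, 8.64%, where 4.88% of all measured gene and class pairs were. Of these, 6 were higher in CFC-14d, where 3.18% of all pairs were, and 1 was lower, where 1.7% were. The median ratio of the 81 pairs was -0.02. Csf1r in fibroblast-like cells was at 293 CPM against 160.2 (log2 ratio 0.87, interval 0.53 to 1.21), or 19.5% and 10.9% of the microglia-like level. Tgfb2 in neuroblast-like cells, a class of neuroblasts or immature granule neurons, was at 76.8 against 45.7 (0.74, 0.25 to 1.27). Tgfb1 in monocyte-like cells was at 179 against 114 (0.65, 0.20 to 1.13). Tgfbr1 in B cell-like cells was at 165 against 99.5 (0.72, 0.24 to 1.21). Each of these rests on 1 library a side and on 48 to 181 counts per library. Tgfb1 in erythroid-like cells (0.61) and Tgfbr1 in neutrophil-like cells (0.62) were in classes where 20.4% and 34.3% of all genes were past the threshold, and of the neutrophil-like cells 413 of 484 in CFC-14d and 12 of 117 in Random-14d lay in 1 of the class's 2 clusters. The 2 ratios stayed past 1.5-fold in only 1 of 9 and 3 of 8 alternative settings. Tgfb2 in neuroblast-like cells stayed past it in 7 of 9 and Csf1r in fibroblast-like cells in 9 of 9. In fibroblast-like cells all 9 measured genes of the TGF-beta-dependent microglial list described below were also higher in CFC-14d. Their median log2 ratio was 0.41, where that of all genes was -0.02. In B cell-like cells all 7 measured genes of that list were higher, with a median of 0.43 where that of all genes was 0.05. Sall1 in pericyte-like cells was at 32.0 CPM against 51.9 (-0.69, -1.16 to -0.25), and there Csf1r (-0.39), Tgfbr1 (-0.44) and the summed microglia markers, at 5134 against 6379 CPM, were lower too. The part of free microglial RNA in the fibroblast-like, B cell-like and pericyte-like values was not tested.

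In nuclei the sources could be read for neurons as well. Il34 was highest in GABAergic interneuron-like nuclei, at 82.1 CPM in WT-naive (75.6 to 89.0), 78.3 in WT-CFC (72.0 to 84.9) and 56.5 in KO-CFC (47.6 to 66.6). CA3 or CA2 pyramidal neuron-like nuclei had 49.0, 54.9 and 36.0 CPM and mossy cell-like nuclei, the glutamatergic neurons of the hilus, 50.3, 50.0 and 37.7, and these classes overlapped. Dentate granule neuron-like nuclei, the principal neurons of the region, had 10.5, 7.64 and 6.79 CPM. Pericyte-like nuclei stood above all of these, at 227, 242 and 341 CPM, but from 31, 62 and 26 nuclei with 16, 49 and 12 counts. Thus the class with the highest Il34 was the same in cells and nuclei, while by molecules neurons dominated: CA3 or CA2-like nuclei held 47.6% and 46.7% of the Il34 counts of WT-naive and WT-CFC and interneuron-like nuclei 22.8% and 21.4%. In the library labelled KO-CFC these shares were 7.30% and 15.9%, and unnamed clusters held 55.1%. Among the unnamed was a cluster of 1069 nuclei of KO-CFC that scored highest for CA3 or CA2 pyramidal neuron markers, so the 7.30% may leave out such neurons.

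The other ligands differed in their sources in nuclei. Csf1 in the wild-type libraries was highest in oligodendrocyte-like nuclei, at 70.5 and 70.9 CPM in WT-naive and WT-CFC, followed by astrocyte-like nuclei at 32.6 and 34.6. Microglia-like nuclei had 14.5 and 10.4 CPM there, from 6 and 5 counts. Tgfb1 was found in microglia-like nuclei at 123, 104 and 42.4 CPM in WT-naive, WT-CFC and KO-CFC, and no other class with at least 100 nuclei in each library had a mean above 1.72. Tgfb2 was at 78.1, 93.2 and 55.0 CPM in neuroblast-like nuclei, at 53.9, 61.1 and 60.1 in mossy cell-like nuclei and at 60.4, 60.8 and 51.8 in astrocyte-like nuclei. Dentate granule neuron-like nuclei had 42.2, 57.0 and 34.8 CPM of it and CA3 or CA2-like nuclei 39.8, 41.7 and 49.8, and all of these classes overlapped their neighbours in the order.

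Csf1r, Tgfbr1, Tgfbr2 and Sall1 were highest in microglia-like nuclei. Border-associated macrophages, the next class for both TGF-beta receptors and Csf1r among cells, were not a class of nuclei. Csf1r was at 945 CPM in WT-naive (853 to 1043), 1036 in WT-CFC (947 to 1131) and 597 in KO-CFC (548 to 649) in microglia-like nuclei, a mean 90.1-fold above the next class. For Tgfbr1, at 1515, 1699 and 1020.5 CPM, this ratio was 13.1, for Tgfbr2, at 425, 391.9 and 506, it was 14.99, and for Sall1, at 145, 211 and 89.1, it was 12.4. These ratios cover only the 9 named classes with at least 100 nuclei in each library, and endothelial cells were not among them. An unnamed cluster of 60, 61 and 66 nuclei scored highest for endothelial markers. It had 76.7, 70.0 and 174 CPM of Tgfbr2, so the Tgfbr2 ratio overstates the distance to other cells. In mossy cell-like nuclei, which should lack Csf1r, 0.48%, 0.20% and 1.49% of nuclei thinned to 1000 UMIs had a Csf1r UMI. In microglia-like nuclei the shares were 58.2%, 63.7% and 46.4% (65.4%, 70.4% and 51.1% unthinned), after leaving out 80, 67 and 265 shallower nuclei. Smad3 was again shared: microglia-like nuclei had 147, 150.1 and 109 CPM and dentate granule neuron-like nuclei 87.8, 126 and 106, and granule neurons held 38.2%, 50.8% and 50.5% of its counts. Levels in nuclei and cells differ in what RNA was sampled and are not compared between the 2 kinds of library.

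**Figure D3:**
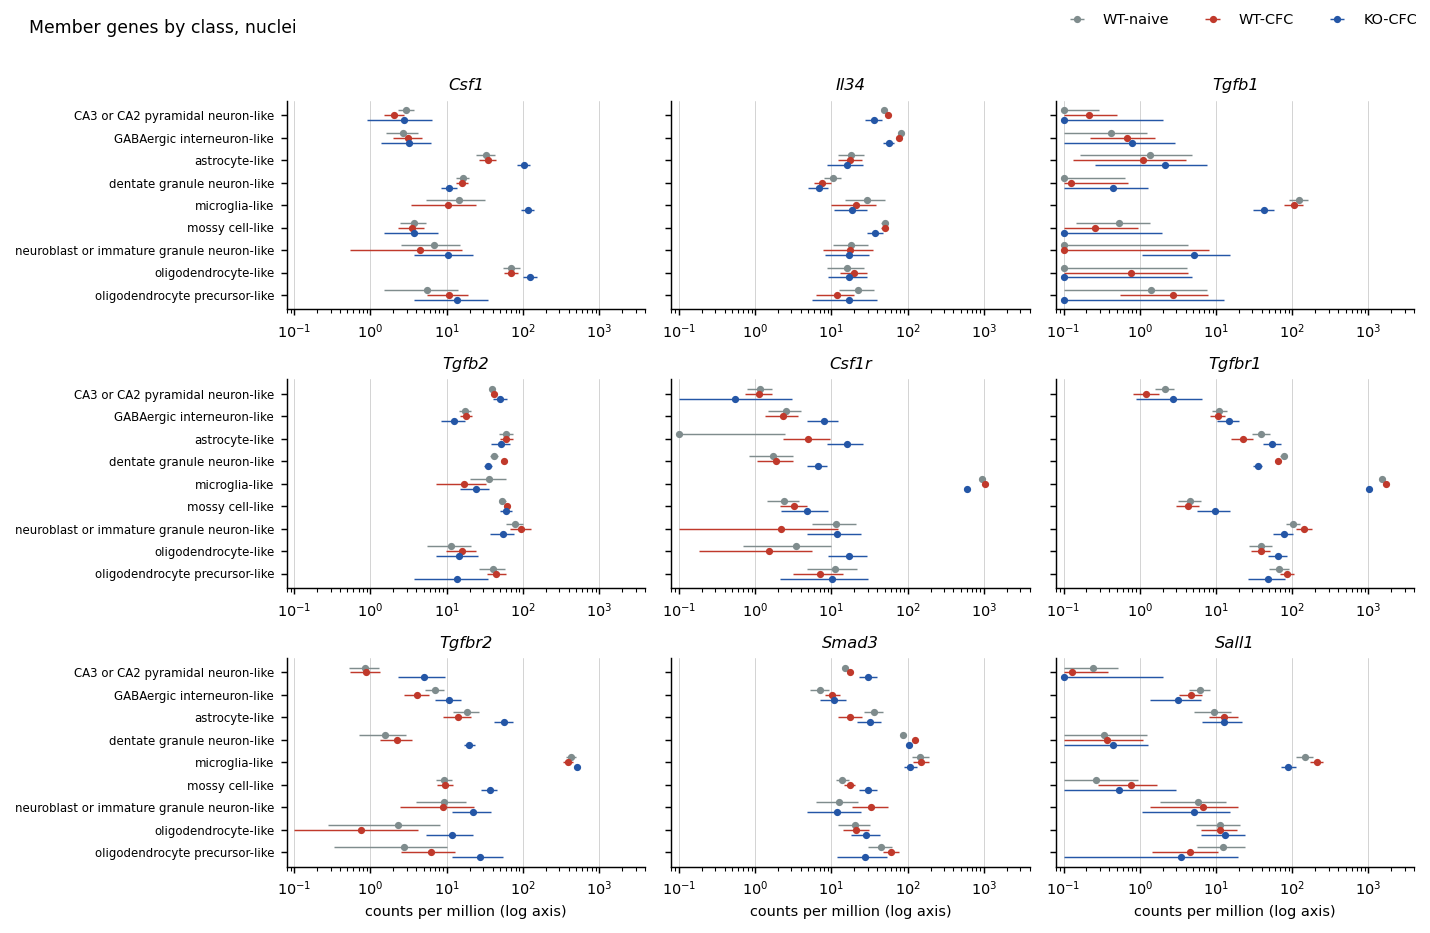
Level of each of the 9 genes in the 9 classes of nuclei with at least 100 nuclei in each library, in CPM on a log axis. Points are WT-naive, WT-CFC and KO-CFC, bars are exact Poisson 95% intervals, and a level of 0 is drawn at 0.1. Csf1 in microglia-like and astrocyte-like nuclei and Tgfbr2 in every class shown are higher in KO-CFC than in both wild-type libraries.

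WT-CFC against WT-naive compared trained with untrained wild-type mice. Of 30 measured pairs of member and class 0 were past 1.5-fold, where 5.95% of all measured pairs were, and among the 6 members measured in microglia-like nuclei 0 were, where 8.43% of all 1767 measured genes were. Sall1 came nearest in microglia-like nuclei, at 211 CPM after training and 145 without it, from 101 and 60 counts (log2 ratio 0.53, 0.06 to 1.02). Csf1r was at 0.13 (-0.06 to 0.33), Tgfbr1 at 0.17 (0.01 to 0.32), Smad3 at 0.02, Tgfbr2 at -0.12 and Tgfb1 at -0.24. The intervals of Sall1 and Tgfbr1 lay above 0 for counting error alone, and no replicate exists to say how far libraries of 1 group differ. Among neurons, the ratios nearest to the threshold were Smad3 in interneuron-like nuclei (0.53, 76 and 51 counts), Csf1 in CA3 or CA2-like nuclei (-0.52, 47 and 74 counts) and Smad3 in dentate granule neuron-like nuclei (0.52, 0.36 to 0.67, 1003 and 510 counts).

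The library labelled KO-CFC differed from WT-CFC in more members. Of 29 measured pairs 16 were past 1.5-fold, 55.2%, where 22.8% of all measured pairs were: 8 higher, against 14.1% of all pairs, and 8 lower, against 8.68%. This comparison shares WT-CFC with the one above. In microglia-like nuclei 4 of 6 measured members were past it, where 32.5% of all 3092 measured genes were. Csf1 was at 116 CPM (95.3 to 141, 107 counts) in KO-CFC, 10.4 (3.38 to 24.3, 5 counts) in WT-CFC and 14.5 (5.32 to 31.6, 6 counts) in WT-naive, a log2 ratio to WT-CFC of 3.35 (2.21 to 5.13). The intervals of KO-CFC and of the wild-type libraries did not overlap. A Csf1 UMI was found in 11.04% of thinned microglia-like nuclei of KO-CFC (11.4% unthinned) against 0.72% in WT-CFC (1.45%) and 1.23% in WT-naive (1.23%), and in 0.50%, 0.20% and 0.32% of mossy cell-like nuclei of the same libraries.

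The receptor of this ligand, Tgfbr1 and Sall1 were lower in the same nuclei. Csf1r was at 597 CPM in KO-CFC against 1036 in WT-CFC and 945 in WT-naive (log2 ratio to WT-CFC -0.80, -0.97 to -0.62). Tgfbr1 was at 1020.5 against 1699 and 1515 (-0.74, -0.87 to -0.60), and Sall1 at 89.1 against 211 and 145 (-1.24, -1.68 to -0.81). KO-CFC was below both wild-type libraries in all 3. Tgfbr2, which pairs with Tgfbr1, was not lower, at 506 against 391.9 and 425 (0.37, 0.12 to 0.62), and did not pass 1.5-fold, nor did Smad3, at 109 against 150.1 and 147 (-0.47, -0.92 to -0.01). Tgfb1 was at 42.4 CPM against 104 and 123 (-1.29), from 39 and 50 counts, which is under the 100 counts asked for. Per 100 Csf1r counts there were 171 Tgfbr1 counts in KO-CFC, 164 in WT-CFC and 160 in WT-naive, so these 2 receptors kept their proportion, while Tgfbr2 stood at 84.9 per 100 against 37.8 and 45.0.

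**Figure D4:**
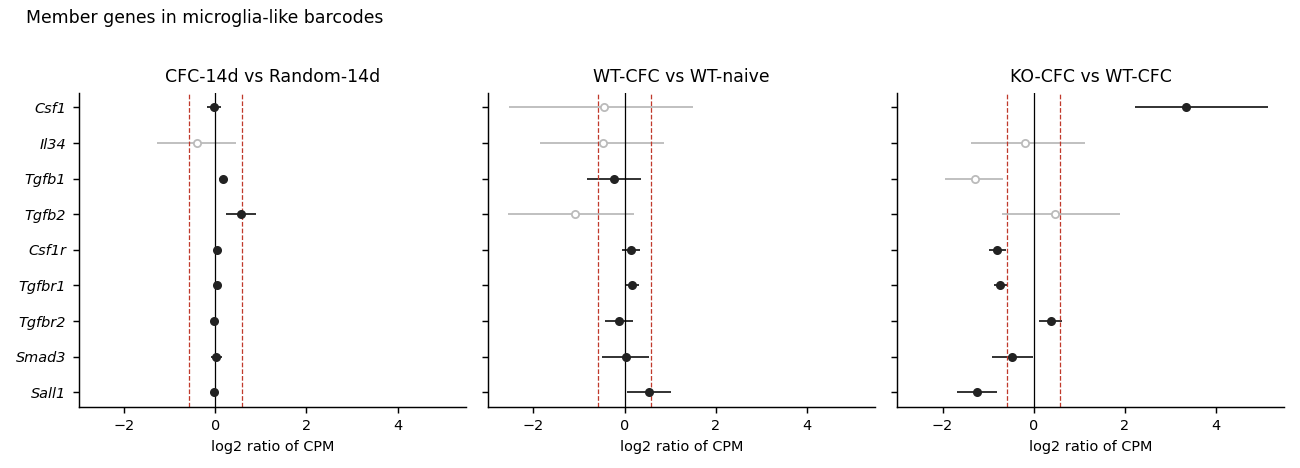
Log2 ratio of each member gene between libraries in microglia-like barcodes, 1 panel per comparison. Filled points had at least 100 counts over both libraries, open grey points fewer, bars are exact conditional 95% intervals and dashed lines mark 1.5-fold. In KO-CFC against WT-CFC, Csf1 lies at 3.35 and Csf1r, Tgfbr1 and Sall1 lie below the lower dashed line, and in the other comparisons no filled point lies outside the lines.

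The microglia-like nuclei of KO-CFC came from other clusters than those of the wild-type libraries. Of its 709 nuclei 653 lay in a cluster that held 1 nucleus of WT-naive and 3 of WT-CFC, led by Ly86, Inpp5d and Lrmda, and 56 lay in the cluster that held 323 and 342 nuclei of WT-naive and WT-CFC. A cluster almost wholly of 1 library may be that library and not a kind of microglia. The 56 nuclei within the shared cluster had 972 CPM of Csf1r, 1533 of Tgfbr1 and 148 of Sall1 (67.8 to 282, 9 counts), and 49.4 of Csf1 (10.2 to 145, 3 counts). Their Csf1r and Tgfbr1 were thus near those of WT-CFC in that cluster, 1031 and 1703 CPM, and their Csf1 interval overlapped that of WT-CFC, 10.5 CPM (3.41 to 24.5). The 653 nuclei of the other cluster had 570.1 CPM of Csf1r, 984 of Tgfbr1, 84.9 of Sall1 and 121 of Csf1.

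Markers of other cells also moved with the library. In microglia-like nuclei the summed B cell markers were at 1637 CPM in KO-CFC against 163 in WT-CFC and 201 in WT-naive, with 6 of 9 detected and Ms4a1 and Pax5 among those at 0. T or NK cell markers were at 66.3 against 12.5 and 4.83 with 9 of 10 detected and Klrb1c at 0, monocyte markers at 77.2 against 25.02 and 16.9, and border-associated macrophage markers at 48.9 against 4.17 and 14.5 with 6 of 8 detected and Lyve1 and Clec4n at 0. T or NK cell-like nuclei, 190 in KO-CFC and 2 in WT-naive, had 97.2 CPM of Csf1. Among microglia-like nuclei without a UMI of a lymphocyte marker, 163 of 709 in KO-CFC and 275 of 345 in WT-CFC, an alternative added after the data were seen, Csf1 was at 132 CPM against 10.99 (log2 ratio 3.44) and Csf1r at 587 against 1030.1 (-0.81). Tgfbr1 there was at 1175 against 1670.2, within 1.5-fold (-0.51), and Sall1 at 126 against 203 (-0.67, -1.43 to 0.00, from 23 and 74 counts). The part of the remaining markers in these differences was not tested.

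Csf1 was higher in the macroglia of KO-CFC too. Astrocyte-like nuclei had 103 CPM there against 34.6 in WT-CFC and 32.6 in WT-naive, from 97, 62 and 48 counts (log2 ratio to WT-CFC 1.57, 1.10 to 2.05). Oligodendrocyte-like nuclei had 124 CPM against 70.9 and 70.5 (0.81, 0.38 to 1.24). In KO-CFC microglia-like nuclei held 20.0% of the Csf1 counts, astrocyte-like 18.2%, oligodendrocyte-like 17.8%, dentate granule neuron-like 13.7% and unnamed clusters 17.6%. Here as well most nuclei of KO-CFC, 472 of 516 astrocyte-like and 339 of 397 oligodendrocyte-like, lay in clusters of their own, the astrocyte-like one with Gfap, a gene of reactive astrocytes, among its leaders. The 44 astrocyte-like nuclei in the shared cluster had 25.7 CPM of Csf1 from 2 counts, against 34.1 in WT-CFC. The 58 oligodendrocyte-like nuclei in their shared cluster had 62.1 from 8 counts, against 70.3 in WT-CFC. So few counts cannot show whether Csf1 was unchanged in these nuclei, which were grouped with wild-type nuclei by their other genes. Without a lymphocyte marker UMI, astrocyte-like nuclei had 102 CPM against 34.7 (1.58, 131 nuclei of KO-CFC), while oligodendrocyte-like nuclei had 73.1 against 68.4 (0.15, -0.91 to 0.97, 93 nuclei), so that the oligodendrocyte-like difference was not detectable in them. Summed B cell markers were at 870.3 CPM in astrocyte-like and 892 in oligodendrocyte-like nuclei of KO-CFC against 5.57 and 3.81 in WT-CFC, and microglia markers at 365 and 358 against 89.8 and 66.3.

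In neurons the widest difference was in Tgfbr2, which was higher in KO-CFC than in WT-CFC in every class of nuclei compared. Dentate granule neuron-like nuclei had 19.9 CPM in KO-CFC, 2.25 in WT-CFC and 1.55 in WT-naive, from 135 and 18 counts in the first pair (log2 ratio 3.11, 2.43 to 3.94), and mossy cell-like nuclei 36.7, 9.60 and 9.18 (1.93, 1.44 to 2.43). KO-CFC was above both wild-type libraries in both classes, although only 2.08% of its thinned granule neuron-like nuclei had a Tgfbr2 UMI (0.29% in WT-CFC). Without a lymphocyte marker UMI the granule neuron-like level was 23.4 against 2.21 CPM (3.37), and in the 76 nuclei of KO-CFC in the shared granule cluster it was 21.8 (8.01 to 47.5, 6 counts) against 2.16 (1.26 to 3.46) in WT-CFC, which did not overlap. Summed T or NK cell markers in granule neuron-like nuclei were at 16.4 CPM in KO-CFC against 8.64 in WT-CFC, and B cell markers at 350.1 against 3.26. Their part was not tested. Outside neurons, Tgfbr2 was at 56.0 CPM in astrocyte-like nuclei of KO-CFC against 13.9 in WT-CFC, from 53 and 25 counts. In oligodendrocyte precursor-like nuclei it was at 27.5 against 6.30, from 8 and 7 counts. Over the whole library it stood at 39.7 CPM against 7.91, so the difference was not particular to neurons. Csf1r, a myeloid gene, was also higher in granule neuron-like nuclei of KO-CFC, at 6.64 against 1.88 CPM, from 45 and 15 counts.

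The type I receptor was lower in granule neuron-like and neuroblast-like nuclei. Tgfbr1 in dentate granule neuron-like nuclei was at 35.1 CPM in KO-CFC against 64.7 in WT-CFC and 76.8 in WT-naive (log2 ratio -0.88, -1.11 to -0.66), and Tgfb2 at 34.8 against 57.0 and 42.2 (-0.71, -0.94 to -0.48). Of the granule neuron-like nuclei of KO-CFC, 1621 of 1697 lay in a cluster with 20 nuclei of WT-naive and 14 of WT-CFC. The 76 in the shared cluster had 36.4 CPM of Tgfbr1 (17.5 to 66.9, 10 counts) against 64.9 (59.3 to 70.7) in WT-CFC, and 29.1 of Tgfb2 (12.6 to 57.4, 8 counts) against 57.0 (51.8 to 62.5), and both pairs of intervals overlapped. Tgfbr1 was also lower in neuroblast-like nuclei (-0.89, 45 and 65 counts) and in oligodendrocyte precursor-like nuclei (-0.78, 14 and 95 counts), and higher in oligodendrocyte-like nuclei (0.72, 49 and 51 counts). In interneuron-like nuclei it was at 14.7 against 10.6 CPM (0.48), within 1.5-fold, and in mossy cell-like and CA3 or CA2-like nuclei it had 18 and 33 and 5 and 28 counts, under the minimum. Smad3 was higher in mossy cell-like (0.81) and CA3 or CA2-like nuclei (0.79). Il34 in CA3 or CA2-like nuclei was at 36.0 CPM against 54.9 (-0.60, -0.99 to -0.25), but within 1 cluster of that class, with 133 nuclei of KO-CFC, at 42.8 against 57.8, and the class ratio stayed past 1.5-fold in 5 of 9 alternative settings. That class held only 225 nuclei of KO-CFC. The unnamed cluster of 1069 nuclei of KO-CFC led by Kcnq5 and Raver2 scored highest for CA3 or CA2 pyramidal neuron markers but is left out of the class. It had 45.8 CPM of Il34 (41.3 to 50.7, 378 counts), so the class ratio may not stand for all such neurons of KO-CFC.

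The other genes of both pathways were read in microglia-like barcodes from 8 lists. In CFC-14d against Random-14d, 0 genes of any list were past 1.5-fold. In WT-CFC against WT-naive, 1 of 8 measured CSF1R adaptor and signalling genes was past it, Tyrobp, the DAP12 adaptor, at 221 against 118 CPM (log2 ratio 0.89), and all 8 had ratios above 0 with a median of 0.17, where that of all genes was 0.06. In these nuclei 8.43% of all genes were past 1.5-fold, so 1 of 8 is near the background. Of 8 measured TGF-beta-dependent microglial genes 7 had ratios above 0 and 2 were past it: Olfml3, a secreted glycoprotein, at 373 against 169 CPM (1.14, 0.74 to 1.56), and Tmem119, a membrane protein of resting microglia, at 290 against 174 (0.73, 0.32 to 1.17). The median of the list was 0.20.

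In KO-CFC against WT-CFC all 8 measured TGF-beta-dependent genes were lower and 7 were past 1.5-fold, where 16.3% of all genes measured in microglia-like nuclei were past it in that direction, and the list's median was -1.17 where that of all genes was -0.07. Olfml3 was at 135 CPM in KO-CFC, 373 in WT-CFC and 169 in WT-naive (log2 ratio to WT-CFC -1.47), Tmem119 at 121, 290 and 174 (-1.26) and Gpr34, a lipid receptor, at 285, 700.5 and 585 (-1.30). P2ry12, the ADP receptor that guides microglial processes, was at 448, 869 and 831 CPM (-0.96), and Cx3cr1, the fractalkine receptor, at 499, 1107 and 918 (-1.15). KO-CFC was the lowest of the 3 libraries in each of these 5 genes, and its Olfml3 and Tmem119 levels were nearer to those of WT-naive than to those of WT-CFC. Of the list, P2ry12, Tmem119, Siglech, Gpr34 and Cx3cr1 are also among the markers by which microglia-like clusters were named, so the class and the list are not independent.

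**Figure D5:**
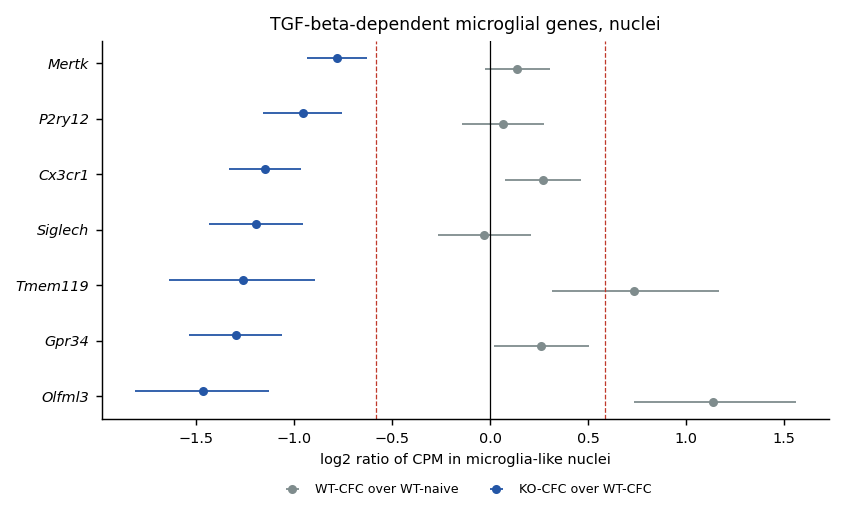
Log2 ratio of the 7 TGF-beta-dependent genes past 1.5-fold in KO-CFC against WT-CFC, in microglia-like nuclei, WT-CFC over WT-naive and KO-CFC over WT-CFC, with exact conditional 95% intervals and dashed lines at 1.5-fold. The genes lie at or near 0 or above it in WT-CFC against WT-naive, with Olfml3 at 1.14, and below 0 in KO-CFC against WT-CFC, with Olfml3 at -1.47. The comparisons share the WT-CFC library.

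The remaining lists were mixed in KO-CFC against WT-CFC. Of 9 measured CSF1R adaptor and signalling genes 3 were past 1.5-fold, near the 32.5% of all genes in these nuclei: Ptprz1, a phosphatase that also binds IL-34, was higher (0.83), and Inpp5d, the inositol phosphatase SHIP1, and Cbl, a ubiquitin ligase of CSF1R, were lower (-0.71 and -0.69), with a median of -0.25. Ptprz1 was at 109 CPM in KO-CFC, 60.5 in WT-CFC (29 counts) and 106 in WT-naive (44 counts), so KO-CFC was near WT-naive. Astrocyte-like nuclei of WT-CFC had 1894 CPM of Ptprz1, and the part of free RNA in the microglia-like values was not tested. Of 4 measured TGF-beta signal inhibitors 2 were past it, too few to read against that share: Pmepa1 was at 113 CPM against 227 (-1.01) and Ski at 172 against 286 (-0.73). Both are also among the 4 measured TGF-beta targets, whose median was -0.55. Of 6 measured transcription factors of macrophages only Mef2a was past 1.5-fold, again too few to read against that share (863 against 1587 CPM, -0.88), while Spi1, which encodes PU.1, was at 0.06 and Irf8 at 0.10. Nrros, which holds latent TGF-beta1 on microglia, was at 333 against 225 CPM (0.56) and was not past it. Neither the genes Tgfbr3, Eng and Acvrl1 of the co-receptor list nor Smad2 and Smad4 reached 100 counts.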

How the data were processed

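The authors deposited raw UMI counts of each gene in each barcode, without normalization, for 5 droplet libraries. The submitters' processing notes name the builds GRCm39 and mm39 and the tools Cell Ranger 8.0.1 and Seurat 5.4.0. No release of the annotation is given there. Barcodes with at least 500 UMIs, 300 genes and at most 20% (cells) or 5% (nuclei) mitochondrial counts were kept. Doublets were scored in the manner of Scrublet: its automatic threshold removed 9.66% of WT-naive and 13.7% of KO-CFC, and about 8% by highest score were removed from the other libraries. Cells and nuclei were clustered separately (2000 variable genes without the members and listed genes, 30 components, 15 neighbours, Leiden resolution 1), giving 37 clusters of cells (7 unnamed) and 33 of nuclei (13 unnamed), named from 27 marker sets. Counts were summed per class and library. Log2 ratios used 0.5 added counts, and no p-value was computed.

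The members and gene lists were chosen with earlier results of these data known. Named by rule were the members in every class and, for each list and comparison in microglia-like barcodes, up to 3 highest and 3 lowest genes past 1.5-fold with at least 100 counts. P2ry12, Cx3cr1, Spi1, Irf8 and Nrros were added after their values were seen. Likeness between genes was Pearson's r of log2(CPM + 1) over classes, read for genes with at least 200 counts. Some listed genes are not reported here by name. In all, 57 of 58 listed genes were found. No column of another sample was used (0 left out). The ratio and interval code was tested on simulated data. The software was Python 3.11.15 with numpy 2.4.6, scipy 1.17.1, pandas 2.3.3, scanpy 1.11.5, scikit-learn 1.9.0, leidenalg 0.10.2, igraph 0.11.9 and matplotlib 3.10.9.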

Additional observations from a re-analysis of the deposited data

How the results depend on the processing

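No paired analysis was possible because each group had 1 library. There were 11 alternative settings planned and 1 added after the data were seen (nuclei without a lymphocyte marker UMI). The members past 1.5-fold in CFC-14d against Random-14d, 7 pairs, became 11 with 15% of barcodes removed as doublets, 14 at Leiden resolution 2, 12 with each library clustered on its own, 3 at 200 counts or more and 36 with no count minimum. In that comparison Tgfb1 in erythroid-like cells turned to -0.39 at 1000 UMIs and 500 genes or more, and Tgfbr1 in neutrophil-like cells to -0.16 with separate clustering. The cause was not tested. In WT-CFC against WT-naive the 0 pairs became 2 at 1000 UMIs and 500 genes, 1 with stricter mitochondrial limits, 3 with 15% doublets, 5 with separate clustering, 1 with barcodes weighted equally and 23 with no minimum. Sall1 in microglia-like nuclei ranged from 0.39 to 0.63 and passed 1.5-fold in 2 of 10 settings. In KO-CFC against WT-CFC the 16 pairs became 6 at 200 counts, 46 with no minimum and 4 without lymphocyte marker UMIs, where only 10 pairs were measured. Of the 8 ratios past 1.5-fold in classes with at least 100 such nuclei in each library, 7 were still past it in size. In the smaller classes 3 fell within 1.5-fold: Csf1 in oligodendrocyte-like (0.15), Smad3 in CA3 or CA2-like (0.43) and Tgfbr1 in oligodendrocyte precursor-like nuclei (-0.57). The other ratios of the smaller classes stayed past it. In microglia-like nuclei Csf1 ranged from 3.20 to 3.44, Csf1r from -1.23 to -0.66 and Sall1 from -1.87 to -0.67, each at least 1.5-fold in size in 10 of 10 settings, although without lymphocyte marker UMIs Csf1 (24 and 4 counts) and Sall1 (23 and 74) were under the 100 counts asked for, and Tgfbr1 from -1.14 to -0.51, past it in 9. Csf1 in astrocyte-like nuclei ranged from 1.54 to 1.82, and Il34 in CA3 or CA2-like nuclei from -0.83 to -0.22, past it in 5 of 9. With 5 and 6 Csf1 counts in the wild-type microglia-like nuclei, depth limits the size of that ratio, and in Tgfb1 it limits the call.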

Other observations

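Genes whose levels over the classes were most like those of each member were read as Pearson's r of log levels, as a description with no test, since the classes share libraries and free RNA. Over 16 classes of cells and 13071 genes, Csf1r was most like Fcgr1 (0.99), an Fc receptor gene, Tgfbr1 most like Ppfia4 and Cx3cr1 (0.99), and Sall1 most like Slc29a3 (0.95), a lysosomal nucleoside transporter gene. Il34 was most like Vtn (0.98), the vitronectin gene expressed by pericytes, Tgfb1 most like Gsdmd (0.97), Tgfbr2 most like Zfp36l1 (0.96) and Smad3 most like Lrrk1 (0.90). Csf1 had the least close partner, Zfp276 (0.88). Over 9 classes of nuclei and 13065 genes, Tgfb1 was most like Spi1 (0.995), Csf1r close to Selplg (0.996) and Il34 most like St8sia5 (0.96).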
